A study of Mus musculus with 8 samples.

Results

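The genes described here are 10 components of the Hippo kinase cascade, found by name in a listing of 12528 genes from mouse embryonic fibroblasts (MEFs) with or without caveolin-1. They are the kinase genes Stk3 and Stk4, the kinase genes Lats1 and Lats2, the scaffold Sav1, the co-activators Mob1a and Mob1b, the upstream regulator Nf2, and the angiomotins Amot and Amotl1. They were taken by name as known parts of the pathway, with no threshold on a measured value, and all 10 were listed and passed the filter on low values. The cells were immortalized MEF lines from wild-type (WT) mice and from their caveolin-1-deficient (Cav1KO) littermates. They were seeded sparsely on fibronectin-coated polyacrylamide hydrogels, either stiff or soft, and RNA was taken after 24 h. The comparison asks how the RNA of the cascade differed between substrates of different stiffness, and whether it did so alike with and without caveolin-1, the main structural protein of caveolae. The 4 groups, named by genotype and substrate, had 2 libraries each, and a mean is given below with its SD over those 2. How many independent lines or cultures lay behind the libraries is not given in the sources used here, so p-values measure only the spread between these samples, which may be technical. WT and Cav1KO cells were of different lines, so an effect of genotype and a difference between lines cannot be told apart.

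Values are CPM, read counts scaled to a common library size, here one that the authors adjusted by the trimmed mean of M-values (TMM). The libraries held 17089836 to 19944952 reads on listed genes, and a count of 0 would allow up to 3 reads, or 0.151 to 0.181 CPM depending on the library, for counting error only. Each member rested on 245 to 5587 reads per library, and Amotl1 was the gene with the fewest. Cav1 itself, the check of the knockout, had 949.8 to 1157 CPM with the wild-type genotype, and no Cav1KO library exceeded 0.411 CPM. Of 9 fibroblast markers 8 were listed, and Thy1 was not. Their summed level was 9001 to 9187 CPM in the WT stiff, 11453 to 11650 in the WT soft, 4318 to 5413 in the Cav1KO stiff and 12976 to 13032 in the Cav1KO soft libraries. No epithelial, endothelial or muscle marker of the lists used was listed. Of 6 macrophage marker names only Cd14 and Cd68 were listed, and Ptprc, Csf1r and Adgre1 were not. Their sum was 24.9 to 40.4 CPM in WT and 92.8 to 103.6 CPM in Cav1KO libraries. Most of it was Cd14, as Cd68 reached at most 4.55 CPM in any library. These sums moved with the groups compared below, and their part in the results was not tested. The libraries are of whole cultures, so fewer cells of a kind and less RNA per cell cannot be told apart.

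In the core of the Hippo pathway the MST kinases (MST2 from Stk3 and MST1 from Stk4), held together with the scaffold SAV1, phosphorylate the LATS kinases and the MOB1 proteins that activate them. LATS kinases phosphorylate the transcriptional co-activators YAP and TAZ, which are then kept out of the nucleus and broken down. Merlin, the product of Nf2, brings LATS kinases to the plasma membrane, and angiomotins bind both actin filaments and YAP. In fibroblasts the pathway is known for its response to cell spreading, tension of the actin cytoskeleton and contact between cells. Much of this control acts on the proteins by phosphorylation and localization, which RNA levels do not measure.

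Per kilobase of the longest coding transcript, Sav1 and Mob1a had the highest levels of the 10 genes. The mean over the 8 libraries was 65.0 CPM per kb for Sav1, with single libraries from 48.7 to 85.3, and 52.6 CPM per kb for Mob1a, with single libraries from 35.5 to 68.9. These ranges overlapped. Amot followed at 15.1 CPM per kb and Nf2 at 11.5, also with overlapping ranges. Stk3 (9.86), Mob1b (8.32), Stk4 (7.60), Lats1 (5.71) and Lats2 (5.17 CPM per kb) each overlapped with its neighbour in this order, and Amotl1 was lowest at 3.09 CPM per kb, although its highest library (6.396) lay above the lowest libraries of Lats1 and Lats2. The order depends on the length used. Over the union of all annotated exons Mob1a came before Sav1, and Stk3 moved from rank 5 to rank 8.

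**Figure D1:**
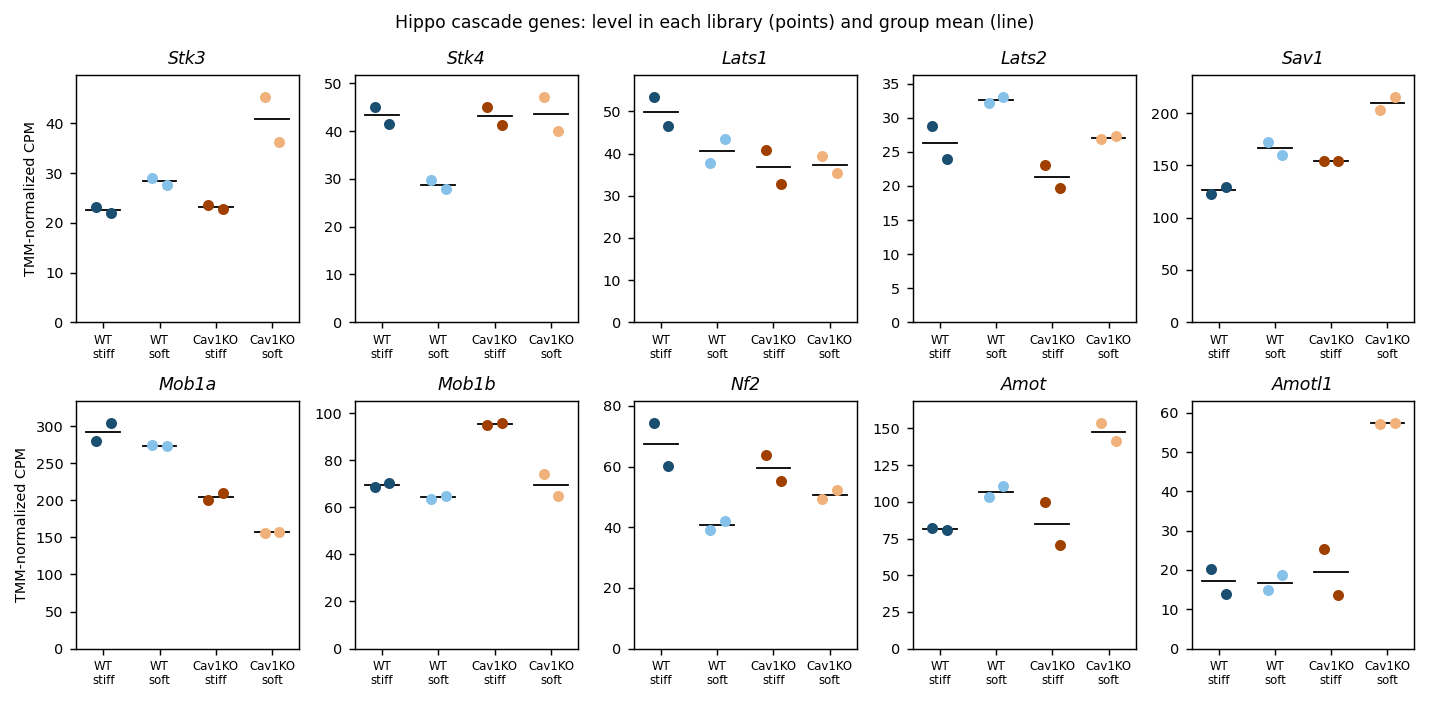
Level of each of the 10 genes in each library, in CPM on a linear axis that starts at 0, with 1 point per library and a line at the mean of the 2 libraries of a group. Amotl1 stood at 57.2 and 57.3 CPM in the Cav1KO soft libraries and between 13.6 and 25.3 CPM in the other libraries, and Stk4 was lowest in the WT soft libraries.

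Of the promoters, those of Lats2, Sav1 and Mob1a are printed here, because they hold the letters GGAATG or their reverse complement CATTCC, the core motif of the TEAD factors with which YAP and TAZ act on DNA. The windows run from 250 bases before to 50 bases after the start site, are taken from RefSeq on the GRCm38.p6 build, and are written 5′ to 3′ on the strand of the gene with the motif in capitals. With the start site as position 1, the motif begins at position 5 in Lats2 (chr14:57746074-57746373, minus strand), 106 bases before it in Sav1 (chr12:69986953-69987252, minus strand) and 209 bases before it in Mob1a (chr6:83325789-83326088, plus strand).
Lats2: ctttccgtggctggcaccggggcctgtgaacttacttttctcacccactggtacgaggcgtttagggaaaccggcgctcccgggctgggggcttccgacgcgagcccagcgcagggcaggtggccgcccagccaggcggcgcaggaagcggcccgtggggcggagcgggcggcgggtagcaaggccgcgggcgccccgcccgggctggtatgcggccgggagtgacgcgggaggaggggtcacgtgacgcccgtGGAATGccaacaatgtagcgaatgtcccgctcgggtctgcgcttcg
Sav1: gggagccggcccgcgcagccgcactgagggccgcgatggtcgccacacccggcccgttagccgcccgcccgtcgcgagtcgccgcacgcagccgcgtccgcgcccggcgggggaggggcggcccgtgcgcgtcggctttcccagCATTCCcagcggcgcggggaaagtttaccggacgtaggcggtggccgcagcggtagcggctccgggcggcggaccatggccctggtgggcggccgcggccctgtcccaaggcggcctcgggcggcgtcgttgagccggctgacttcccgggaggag
Mob1a: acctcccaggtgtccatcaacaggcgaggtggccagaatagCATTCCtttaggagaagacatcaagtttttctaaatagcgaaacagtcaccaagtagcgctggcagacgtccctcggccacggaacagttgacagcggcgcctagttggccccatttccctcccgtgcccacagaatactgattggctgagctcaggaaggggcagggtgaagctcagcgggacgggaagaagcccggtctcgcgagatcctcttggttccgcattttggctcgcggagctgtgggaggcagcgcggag
Of the 10 genes, 9 had a promoter in the RefSeq table, all except Stk3, and Lats2 and Nf2 had 2 each, which gives 11 windows. The Lats2 window printed is the upstream one of its 2 and lies inside the GENCODE span of the gene given below. The TEAD letters were in 3 of the 11 windows and in 14.7% of all 32851 promoters in the table, read on both strands. The E-box CACGTG was in 4 of 11 (Amot, Lats2, Mob1b and Stk4) and in 7.15% of all promoters, and the GC box GGGCGG in 7 of 11 and in 35.7%. The CCAAT box was in 3 of 11 and in 37.4% of all promoters, and the ETS letters CCGGAAG in 1 of 11 (Stk4) and in 8.86%. The AP-1 letters TGAGTCA were in 0 of 11 windows, against 5.20% of all promoters, and the cyclic AMP response element TGACGTCA in 0 of 11, against 1.79%. No motif of this set contains another. These matches describe letters only. The 3 genes with the TEAD letters did not move alike with stiffness, as the values below show.

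In WT cells grown on the stiff substrate Nf2 and Stk4 were higher than on the soft, and Sav1 and Amot were lower, so 2 of 10 genes rose, against 22.1% of all 12494 genes tested, and 2 fell, against 26.3%. In Cav1KO cells Mob1a and Mob1b rose on the stiff substrate (2 of 10, against 27.9% of all genes), and Amotl1, Amot, Stk3, Sav1 and Lats2 fell (5 of 10, against 28.2%). Sav1 and Amot were lower on the stiff substrate in both genotypes. The median log2 difference of the 10 genes was 0.06 in WT and -0.18 in Cav1KO cells, and that of all genes was -0.02 in both. Each difference was fitted by limma as log2(CPM + 1), where fold changes of low genes come out too small, with Benjamini-Hochberg adjustment across the whole set of genes tested and a threshold of 0.05.

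**Figure D2:**
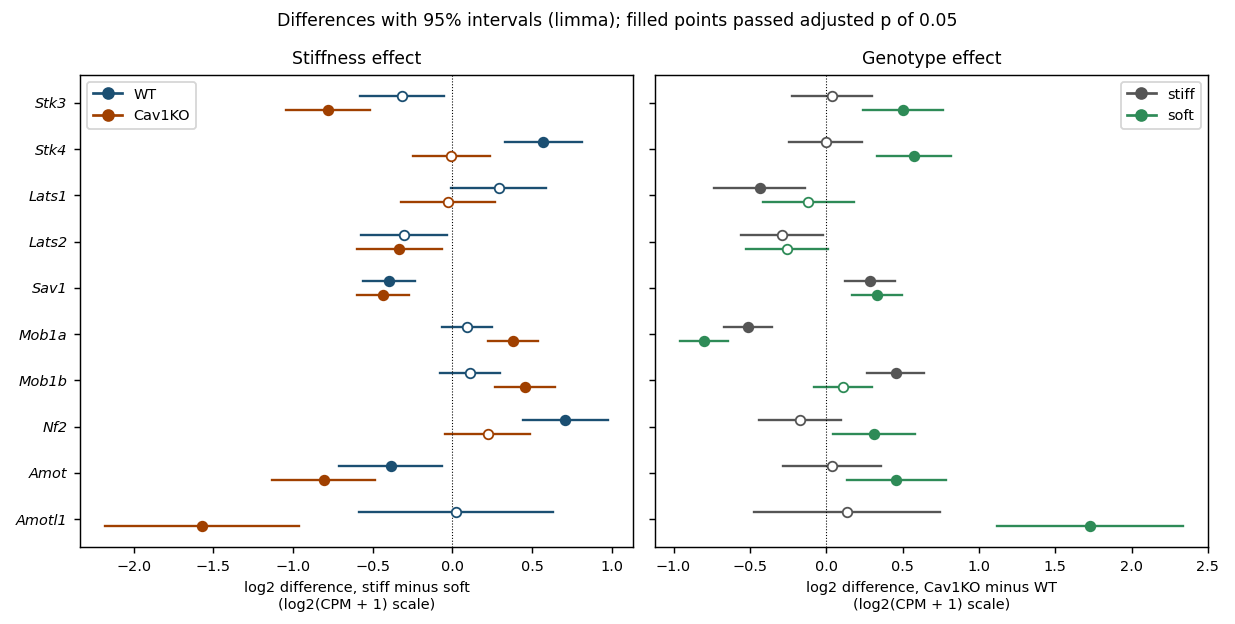
Log2 differences of the 10 genes with 95% intervals from limma, stiff minus soft in each genotype (left) and Cav1KO minus WT on each substrate (right), with filled points where the adjusted p was under 0.05. Amotl1 lay furthest from 0 in both panels, at -1.57 for stiffness in Cav1KO cells and 1.73 for genotype on the soft substrate, and Stk4 lay at 0.57 for stiffness in WT cells and at -0.01 in Cav1KO cells.

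Of the MST kinases, Stk4 (ENSMUSG00000018209, GRCm38 chromosome 2 from 164070322 to 164155524) differed in 1 group from the other 3. It was at 45.0 and 41.6 CPM in WT stiff, 29.8 and 27.9 in the WT soft, 45.1 and 41.4 in the Cav1KO stiff, and 47.2 and 40.0 in the Cav1KO soft libraries. The WT soft libraries were the lowest and did not overlap with any other, while the other 3 groups overlapped. In WT cells Stk4 rose on the stiff substrate by a log2 difference of 0.57 (standard error 0.11, limma adjusted p = 0.00256). In Cav1KO cells the difference was -0.01 with a 95% interval from -0.25 to 0.23. The WT effect minus the Cav1KO effect was 0.58 (limma adjusted p = 0.0464). This interaction did not pass when the pseudocount was 0.1 (adjusted p = 0.0544), in edgeR (0.0501), with no mean-variance trend (0.0690), or when any single library except the first Cav1KO stiff one was left out (adjusted p from 0.0550 to 0.182).

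Stk3 (ENSMUSG00000022329, chromosome 15 from 34875496 to 35178921) was at 23.2 and 21.9 CPM in WT stiff, 29.0 and 27.7 in the WT soft, 23.5 and 22.9 in the Cav1KO stiff, and 45.3 and 36.3 in the Cav1KO soft libraries. The soft libraries lay above the stiff libraries in both genotypes, and the Cav1KO soft libraries above all others. In Cav1KO cells Stk3 fell on the stiff substrate by 0.78 on the log2 scale (limma adjusted p = 0.000613). In WT cells the difference of -0.32 missed the threshold (adjusted p = 0.0509), which it passed without either Cav1KO soft library (0.0420 and 0.0408), and the difference between the genotypes did not pass (0.46, adjusted p = 0.0902). On the soft substrate Stk3 was higher in Cav1KO than in WT cells (log2 difference 0.50, adjusted p = 0.00623), a call that was lost without the first Cav1KO soft library (0.35, adjusted p = 0.0654).

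For the LATS kinases, 1 of 4 stiffness effects passed. Lats1 (ENSMUSG00000040021, chromosome 10 from 7681214 to 7716460) was at 53.4 and 46.5 CPM in WT stiff, 37.8 and 43.5 in the WT soft, 40.7 and 32.8 in the Cav1KO stiff, and 39.3 and 35.4 in the Cav1KO soft libraries. The WT stiff libraries were the highest, and the other 3 groups overlapped. On the stiff substrate Lats1 was lower in Cav1KO than in WT cells (log2 difference -0.44, limma adjusted p = 0.0217). That call was lost without the first WT stiff library (-0.34, adjusted p = 0.133) and without the second Cav1KO stiff library (-0.28, adjusted p = 0.121). Neither stiffness effect passed, with 0.29 in WT cells (adjusted p = 0.0966) and -0.03 in Cav1KO cells (adjusted p = 0.878), although under median centring the WT effect was 0.33 and passed (adjusted p = 0.0482).

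Lats2 (ENSMUSG00000021959, chromosome 14 from 57689662 to 57758388) was lower on the stiff substrate in each genotype, by a similar log2 difference. It was at 28.8 and 23.9 CPM in WT stiff, 32.1 and 33.0 in the WT soft, 23.0 and 19.7 in the Cav1KO stiff, and 26.9 and 27.3 in the Cav1KO soft libraries. Stiff and soft libraries did not overlap within a genotype. The difference in Cav1KO cells passed (-0.33, limma adjusted p = 0.0394), that in WT cells did not (-0.30, adjusted p = 0.0626), and the difference between them was 0.03 with a 95% interval from -0.35 to 0.41. The Cav1KO call was lost under median centring (adjusted p = 0.0891), quantile normalization (0.0847) and DESeq2 (0.0753), and without either WT soft library, the second Cav1KO stiff or either Cav1KO soft library (adjusted p from 0.0581 to 0.193). The WT effect passed without the first WT stiff library (-0.43, adjusted p = 0.0383) and without either Cav1KO stiff library (adjusted p of 0.0442 and 0.0438). Between genotypes Lats2 differed by -0.29 on the stiff (adjusted p = 0.0692) and -0.26 on the soft substrate (adjusted p = 0.0945), neither of which passed, and the former passed without the second WT stiff (-0.42, adjusted p = 0.0347) or the first Cav1KO stiff library (-0.39, adjusted p = 0.0352). Lats2 is uncertain, because 40.9% of its transcript windows of 60 nt also occur in Gm49361, an annotated gene on the same strand that is not among the listed genes.

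Sav1 (ENSMUSG00000021067, chromosome 12 from 69965012 to 69987002) differed in every comparison except the interaction. It was at 122.8 and 129.4 CPM in WT stiff, 172 and 160.2 in the WT soft, 154 and 154 in the Cav1KO stiff, and 203 and 215 in the Cav1KO soft libraries. No 2 groups overlapped, and the order was WT stiff, Cav1KO stiff, WT soft and Cav1KO soft from lowest to highest. Sav1 fell on the stiff substrate by 0.40 on the log2 scale in WT cells (limma adjusted p = 0.00227) and fell by 0.44 in Cav1KO cells (adjusted p = 0.00101), and these effects differed by 0.04 with a 95% interval from -0.19 to 0.27. It was higher in Cav1KO than in WT cells on the stiff (0.29, adjusted p = 0.00920) and on the soft substrate (0.33, adjusted p = 0.00445). The genotype call on stiff was lost without the first WT stiff library (0.25, adjusted p = 0.0595) and that on soft without the second Cav1KO soft library (0.29, adjusted p = 0.0519). Sav1 shares 24.6% of its windows with Atl1 on the opposite strand, and the counting is not stated to use strand. Atl1 was listed at 0.301 to 2.98 CPM and was itself lower on the stiff substrate, by a log2 difference of -0.55 in WT (adjusted p = 0.0237) and -1.22 in Cav1KO cells (adjusted p = 0.000366), and higher in Cav1KO than in WT cells on the soft substrate (0.87, adjusted p = 0.00219).

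Both MOB1 genes differed between genotypes. Mob1a (ENSMUSG00000043131, chromosome 6 from 83326016 to 83343776) was at 281 and 304 CPM in WT stiff, 274 and 274 in the WT soft, 199.9 and 209.7 in the Cav1KO stiff, and 156 and 157 in the Cav1KO soft libraries. All 4 Cav1KO libraries lay below all 4 WT libraries. Mob1a was lower in Cav1KO cells on the stiff (log2 difference -0.51, limma adjusted p = 0.000365) and on the soft substrate (-0.80, adjusted p = 2.47e-05). Within Cav1KO cells it was higher on the stiff substrate (0.38, adjusted p = 0.00163), within WT cells the difference was 0.09 (adjusted p = 0.294), and the interaction of -0.29 did not pass (adjusted p = 0.0809).

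Mob1b (ENSMUSG00000006262, chromosome 5 from 88720855 to 88764220) was at 68.5 and 70.2 CPM in WT stiff, 63.6 and 64.9 in the WT soft, 95.2 and 95.7 in the Cav1KO stiff, and 74.3 and 64.8 in the Cav1KO soft libraries. The Cav1KO stiff libraries stood above the rest. Mob1b rose on the stiff substrate in Cav1KO cells (0.45, limma adjusted p = 0.00178), and on the stiff substrate it was higher in Cav1KO than in WT cells (0.46, adjusted p = 0.00191), which is the opposite direction to Mob1a there. Within WT cells the stiffness difference of Mob1b was 0.11 (adjusted p = 0.307), and the interaction of -0.35 did not pass (adjusted p = 0.0834). On the soft substrate the genotype difference was 0.11 (adjusted p = 0.288). These calls of both MOB1 genes held in all alternatives run, the libraries left out in turn included.

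Nf2 (ENSMUSG00000009073, chromosome 11 from 4765845 to 4849536), which encodes merlin, had the largest rise with stiffness of the 10 genes in WT cells. It was at 74.2 and 60.3 CPM in WT stiff, 39.2 and 42.0 in the WT soft, 63.8 and 55.1 in the Cav1KO stiff, and 49.2 and 52.2 in the Cav1KO soft libraries. Stiff libraries lay above soft libraries in both genotypes, by a log2 difference of 0.71 in WT (limma adjusted p = 0.00143) and of 0.22 in Cav1KO cells, which did not pass (adjusted p = 0.138). Under median centring the Cav1KO difference was 0.31 and passed (adjusted p = 0.0379). The interaction was 0.49 (adjusted p = 0.0841), and it passed without the second WT stiff library (0.63, adjusted p = 0.0470) and without the first Cav1KO stiff library (0.59, adjusted p = 0.0357). Nf2 was higher in Cav1KO cells on the soft substrate (0.31, adjusted p = 0.0490), a call lost with a pseudocount of 0.1 (0.0510) or 5 (0.0516), without the mean-variance trend (0.0751), and without any 1 of the 4 soft libraries (adjusted p from 0.0876 to 0.205).

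Of the angiomotins, Amotl1 had the largest stiffness effect of the 10 genes, in Cav1KO cells. The effect of Amot there (-0.81, standard error 0.14) lay close to that of Stk3 (-0.78, standard error 0.12). Amotl1 (ENSMUSG00000013076, chromosome 9 from 14541966 to 14645056) was at 20.3 and 14.0 CPM in WT stiff, 14.8 and 18.6 in the WT soft, 25.3 and 13.6 in the Cav1KO stiff, and 57.2 and 57.3 in the Cav1KO soft libraries. The Cav1KO soft libraries stood far above the rest, which overlapped. In Cav1KO cells Amotl1 fell on the stiff substrate by 1.57 on the log2 scale (standard error 0.27, limma adjusted p = 0.00123), and in WT cells the difference was 0.02 with a 95% interval from -0.59 to 0.63. The WT effect minus the Cav1KO effect was 1.59 (adjusted p = 0.0393). This interaction missed the threshold when the pseudocount was 0.1 (adjusted p = 0.0503), with no mean-variance trend (0.0598), and without either WT soft, either Cav1KO soft, the first WT stiff or the second Cav1KO stiff library (adjusted p from 0.0601 to 0.147, log2 values from 1.17 to 1.75). On the soft substrate Amotl1 was higher in Cav1KO than in WT cells by 1.73 (adjusted p = 0.000727).

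Amot (ENSMUSG00000041688, chromosome X from 145446425 to 145505181) was at 82.2 and 80.9 CPM in WT stiff, 103 and 110.7 in the WT soft, 99.7 and 70.5 in the Cav1KO stiff, and 153 and 142 in the Cav1KO soft libraries. The soft libraries lay above the stiff libraries in both genotypes. Amot fell on the stiff substrate by 0.81 on the log2 scale in Cav1KO cells (limma adjusted p = 0.00143). In WT cells it fell by 0.39 (adjusted p = 0.0497), a call lost with a pseudocount of 0.1 (0.0543), under median centring (0.0548), without the trend (0.0811), and without any 1 of the 4 WT or the 2 Cav1KO soft libraries (adjusted p from 0.0736 to 0.185). The interaction of 0.42 did not pass (adjusted p = 0.170), but passed without the first Cav1KO stiff library (0.67, adjusted p = 0.00898). Amot was higher in Cav1KO cells on the soft substrate (0.46, adjusted p = 0.0227), which was lost without any 1 of the 4 soft libraries (adjusted p from 0.0596 to 0.125). The 2 Cav1KO stiff libraries lay far apart for both angiomotins, but not for these genes only. Fat1, another Hippo pathway gene, was at 49.5 and 27.5 CPM in them. Pdcd10 differed in the other direction, at 22.9 and 29.6 CPM. What set these libraries apart was not tested. On the stiff substrate the genotype difference of Amot was -0.21 without the first Cav1KO stiff library and 0.29 without the second.

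Between genotypes, 2 of the 10 genes (Sav1 and Mob1b) were higher in Cav1KO cells on the stiff substrate, against 25.0% of all genes, and 2 (Mob1a and Lats1) were lower, against 26.6%. On the soft substrate 6 were higher (Amotl1, Stk4, Stk3, Amot, Sav1 and Nf2), against 24.1% of all genes, and 1 (Mob1a) was lower, against 29.9%. The median log2 difference of the 10 genes was 0.02 on stiff and 0.32 on soft, and that of all genes was -0.03 on each. Leaving out either Cav1KO soft library lowered the number called on the soft substrate from 7 to 4, and leaving out the first WT stiff library lowered that on the stiff substrate from 4 to 2. For the interaction, 2 of 10 (Stk4 and Amotl1) had a higher stiffness effect in WT than in Cav1KO cells, against 4.47% of all genes, and limma called 0 with a lower one, against 6.0%. At an unadjusted p under 0.05 the interaction was passed by 6 of 10, against 34.7% of all genes, 4 with a positive and 2 (Mob1a and Mob1b) with a negative value. edgeR gave the same 4 and 2 at the unadjusted p and called 1 and 0 after adjustment. Over the libraries left out in turn, the interaction called 0 of the 10 in 6 cases, 2 without the second WT stiff library and 4 without the first library of Cav1KO stiff. For the interaction the median log2 value was 0.37 for the 10 genes and -0.07 for all genes. The 4 groups enter several of these comparisons, so the comparisons share libraries and are given side by side only.

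The log2 ratios of paralogues (of CPM + 1) separated stiff from soft libraries for both kinase pairs and WT from Cav1KO libraries for MOB1, though no test of a ratio passed after adjustment. The log2 ratio of Stk3 to Stk4 was -0.91 ± 0.02 (SD, n = 2) in the WT stiff, -0.02 ± 0.02 in the WT soft, -0.87 ± 0.06 in the Cav1KO stiff and -0.10 ± 0.05 in the Cav1KO soft libraries. All 4 stiff libraries lay below all 4 soft libraries, with a mean difference of -0.83, and the genotype difference was -0.02 (exact permutation p = 0.829). On the soft substrate the ratio was near 0 in both genotypes, with Stk4 low in the WT and Stk3 high in the Cav1KO libraries. The log2 ratio of Lats2 to Lats1 was -0.90 ± 0.04 in the WT stiff, -0.31 ± 0.11 in the WT soft, -0.75 ± 0.06 in the Cav1KO stiff and -0.45 ± 0.12 in the Cav1KO soft libraries. It too was lower in every stiff than in every soft library, with a mean difference of -0.45. The log2 ratio of Mob1a to Mob1b was 2.06 ± 0.06 and 2.07 ± 0.02 in WT stiff and soft libraries, and 1.09 ± 0.04 and 1.16 ± 0.14 in Cav1KO stiff and soft libraries, with a genotype difference of -0.94. Each of these 3 differences had an exact permutation p of 0.0286 over 4 against 4 libraries (two-sided), the smallest this design allows. After adjustment over the 8 ratio tests it was 0.0762, which does not pass. An adjusted p under 0.05 would have needed more of the 8 tests at that smallest p, so not passing says little about these 3 ratios. The Amotl1 to Amot ratio differed between genotypes by 0.68 (exact permutation p = 0.0571, adjusted 0.114), and the other 4 ratio tests had exact permutation p of 0.629 or more.

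**Figure D3:**
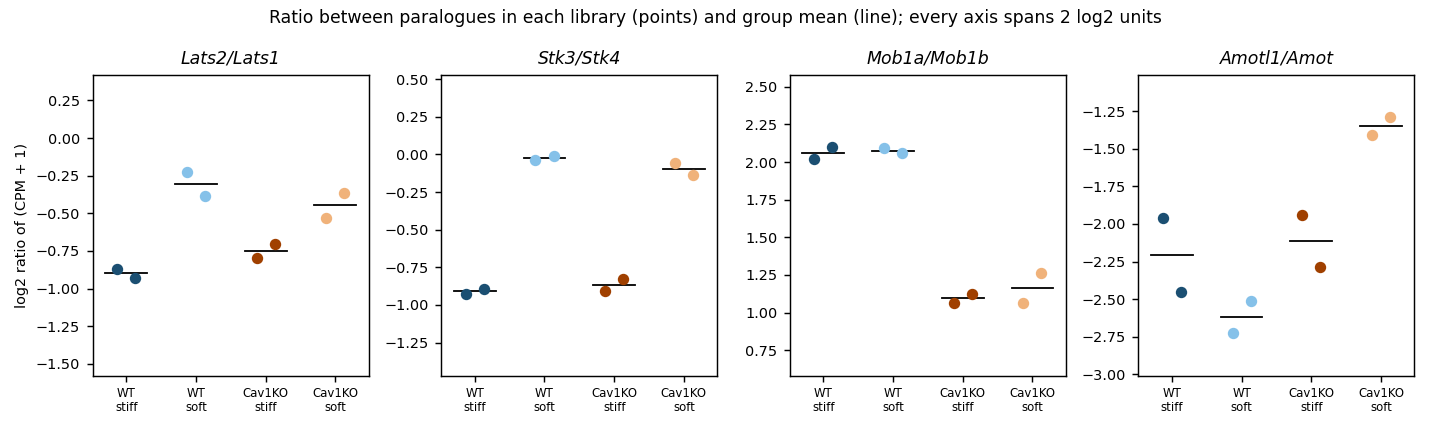
Log2 ratio of CPM + 1 between paralogues in each library, with 1 point per library and a line at the mean of each group of 2. For Stk3 to Stk4 the stiff groups lay at -0.91 and -0.87 and the soft groups at -0.02 and -0.10, and for Mob1a to Mob1b the WT groups lay at 2.06 and 2.07 and the Cav1KO groups at 1.09 and 1.16.

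Sums of each pair per kilobase, chosen after the values were seen and not tested, place these ratios beside the total. Stk3 and Stk4 together had 16.0 ± 0.769 CPM per kb (SD, n = 2) in the WT stiff, 15.2 ± 0.579 in the WT soft, 16.2 ± 0.667 in the Cav1KO stiff and 22.3 ± 3.15 in the Cav1KO soft libraries. Stk3 made up 48.0% to 49.8% of this sum in the 4 stiff libraries and 62.0% to 64.0% in the 4 soft libraries. The sums and shares depend on the length used, 2.91 kb for Stk3, against 6.11 kb for the union of its exons. Over the union of exons the mean over the 8 libraries was 4.70 CPM per kb for Stk3, below Stk4 (6.78). With the coding length it was above (9.86 and 7.60). The LATS pair had 12.0 ± 1.33, 11.9 ± 0.689, 9.22 ± 1.22 and 10.4 ± 0.326 CPM per kb in the same order of groups. The MOB1 pair had 74.0 ± 3.89, 69.2 ± 0.00951, 57.1 ± 1.61 and 43.3 ± 0.659 CPM per kb, and Mob1a was 89.3% to 89.8% of it in WT and 81.0% to 83.1% in Cav1KO libraries. The angiomotin pair had 13.6 ± 0.632, 17.2 ± 1.05, 14.4 ± 3.90 and 27.6 ± 1.197 CPM per kb, highest in the Cav1KO soft libraries.

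Around the cascade, a list of 75 names of other Hippo pathway genes, older symbols included, had 62 genes listed and tested. With stiffness 12 of the 62 rose in WT cells, against 22.1% of all genes, and 11 fell, against 26.3% (median log2 difference 0.05). In Cav1KO cells 15 rose, against 27.9%, and 18 fell, against 28.2% (median -0.11), and the median of all genes was -0.02 in both genotypes. On the stiff substrate 9 were higher in Cav1KO than in WT cells, against 25.0% of all genes, and 24 were lower, against 26.6% (median -0.25, against -0.03 for all genes). On soft, 15 were higher, against 24.1%, and 22 lower, against 29.9% (median -0.04, against -0.03).

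The largest falls with stiffness in WT cells were of Rassf5 (log2 difference -1.04, limma adjusted p = 0.000835), an adaptor that binds MST kinases, Map4k3 (-0.90, 0.00153), a kinase of the family that acts on LATS beside the MST kinases, and Vgll4 (-0.71, 0.000205), which competes with YAP for TEAD factors. The largest rises were of the kinase gene Nuak2 (1.15, 0.000296), the polarity scaffold Scrib (0.88, 0.000319) and Wwc1 (0.85, 0.00605), whose product KIBRA works with merlin. In Cav1KO cells the largest falls were of Map4k3 (-1.48, 8.68e-05), the atypical cadherin Fat4 (-1.25, 0.000662) and the MST-binding adaptor Rassf2 (-1.22, 0.000844). The largest rises were of the phosphatase 2A subunit Ppp2cb (0.70, 0.000288), the LATS-binding LIM protein Wtip (0.70, 0.00111) and the YAP partner Tead2 (0.60, 0.000518). Each value in brackets gives the log2 difference, stiff minus soft, and its limma adjusted p. Map4k3 was among the 3 largest falls in both genotypes, and the WT call of Wwc1 was lost without the first WT soft library (0.69, adjusted p = 0.0560).

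For 6 of the 62 genes the stiffness effect differed between genotypes. It was higher in WT cells for the polarity scaffold Dlg1 (interaction 0.93, limma adjusted p = 0.0241), Nuak2 (0.82, 0.0398) and the FERM protein gene Frmd6 (0.56, 0.0477). It was lower in WT cells for Wtip (-1.03, 0.0131), Tead2 (-0.57, 0.0310) and Ppp2ca (-0.44, 0.0415). Against the background of all genes (4.47% and 6.0%), 3 of 62 in each direction lies near the background. The call of Frmd6 was lost with a pseudocount of 0.1 (adjusted p = 0.0564), in edgeR (0.0536) and with no mean-variance trend (0.0816). That of Nuak2 was lost in DESeq2 (0.108), and those of Tead2 (0.0605) and Ppp2ca (0.0808) with no mean-variance trend. Each of these 6 interactions was lost when 1 of several libraries was left out, with adjusted p up to 0.166, and the number called among the 62 ranged from 0 to 23 over the libraries left out in turn.

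**Figure D4:**
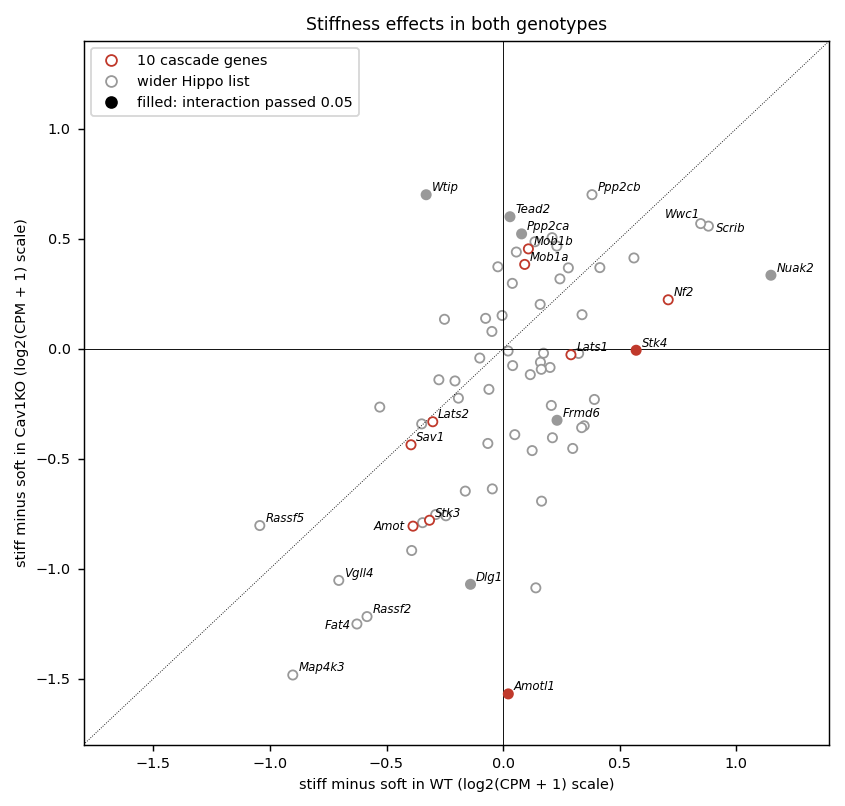
Log2 difference between stiff and soft in WT cells (horizontal) against that in Cav1KO cells (vertical), both on the log2(CPM + 1) scale, for the 10 cascade genes (red) and the 62 genes of the wider list (grey), with filled points where the interaction passed and a dotted line of equal effects. Amotl1 lies at 0.02 and -1.57, and Stk4 at 0.57 and -0.01.

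The substrates of the cascade, named here after their values were seen, differed from each other. Yap1 was at 141 to 159 CPM in all 8 libraries, and none of its 5 comparisons passed (limma adjusted p from 0.135 to 0.909). Wwtr1, which encodes TAZ, was at 152 to 185 CPM in WT and 337 to 384 CPM in Cav1KO libraries, with a log2 difference of 1.15 on the stiff (adjusted p = 2.97e-06) and 1.09 on the soft substrate (adjusted p = 3.79e-06). Wwtr1 was also lower on stiff in WT cells (-0.21, adjusted p = 0.0342), a call lost under median centring (adjusted p = 0.121), in DESeq2 (0.0782), with no mean-variance trend (0.0825), and without either WT stiff, either Cav1KO soft or the first WT soft library (adjusted p from 0.0595 to 0.170). Its stiffness effect in Cav1KO cells (-0.15, adjusted p = 0.0965) and its interaction (-0.06, adjusted p = 0.683) did not pass. Amotl2, the remaining angiomotin, was at 118.8 to 148 CPM in WT and 74.1 to 107 CPM in Cav1KO libraries, lower in Cav1KO cells by 0.61 on the stiff (adjusted p = 0.0152) and by 0.49 on the soft substrate (adjusted p = 0.0354), where Amotl1 and Amot were higher. The soft call of Amotl2 was lost without the second WT soft library (-0.33, adjusted p = 0.213) or either Cav1KO soft library (adjusted p of 0.138 and 0.101), under quantile normalization (-0.41, adjusted p = 0.0714) and with no mean-variance trend (0.0607), and the stiff call without the first WT stiff (adjusted p = 0.0880) or the second Cav1KO stiff library (0.0689).

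As a description over 8 libraries that share groups and depth, with no test, the pattern most like that of Lats1 among 10064 genes with a mean of at least 5 CPM was that of Atxn2l (Pearson r = 0.986), followed by Esco2 (0.985). For Lats2 they were Acap2 (0.983) and Plcd3 (0.983), for Stk3 Vps33a (0.975) and Rbms3 (0.972), and for Stk4 Ercc6l2 (0.978) and Gphn (0.965). Rbms3 was at 6.56 to 7.93 CPM in the WT stiff, 10.9 to 11.1 in the WT soft, 6.24 to 7.29 in the Cav1KO stiff and 19.3 to 21.5 CPM in the Cav1KO soft libraries. Among the 10 genes themselves the most alike were Stk3 and Amot (r = 0.930), and the least alike were Lats2 and Mob1b (r = -0.857).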

How the data were processed

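RNA was extracted 24 h after seeding, and poly(A) libraries from 500 ng of total RNA were sequenced as single reads of 60 nt. The submitters' processing notes name CASAVA 1.8.2, cutadapt, RSEM 1.2.3 and GRCm38; the filter on low genes and the test are not given in the sources used here. The deposited signal is CPM that the authors scaled by TMM, so libraries do not sum to a fixed total and a change in a few abundant genes weighs less. All values were whole multiples of 1 read (tolerance 0.02), so the reads behind each value were recovered, and 17089836 to 19944952 per library set the counting precision. Groups follow the labelled genotype and substrate.

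The test was limma 3.58.1 (R 4.3.3) on log2(CPM + 1) for the 12494 genes that reached 1 CPM in 2 or more libraries. A single fit of the 4 groups had a mean-variance trend and 4 residual degrees of freedom, two-sided, with Benjamini-Hochberg adjustment over all genes tested. Before use the fit was run on simulated counts for stiffness in WT, where it recovered 95.9% of true log2 changes of 1 and 99.0% of those of 2. Except for Amotl1, the differences of the 10 genes were smaller than these, so that run says little about them. Ratios of paralogues were tested by exact permutation over libraries. Alternatives were pseudocounts of 0.1 and 5, no filter, median centring, quantile normalization, edgeR 4.0.16 and DESeq2 1.42.0 on the recovered reads, no trend, a replicate block, and each library left out in turn. Coordinates and lengths are from GENCODE M21 (GRCm38), which matched 12451 of 12528 identifiers (99.4%), and promoters are from RefSeq (GRCm38.p6). Shared windows of 60 nt between transcripts were counted for the 10 genes. Lats2 and Sav1 are uncertain for that reason, and the others shared 0.438% or less.

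The genes named are the 10 members, Cav1, and from the wider list the 3 largest rises and 3 largest falls past the threshold, with a mean of at least 5 CPM, for each stiffness effect and the interaction, plus the 2 genes most like each kinase. Yap1, Wwtr1, Amotl2, Atl1 and Gm49361 were named outside this rule. The members, lists and rules were chosen with earlier results of these data known.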

Additional observations from a re-analysis of the deposited data

Results flagged for a closer look

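The stiffness effect of 2 of the 10 genes differed between genotypes by the test of the interaction. For Stk4 the effect in WT minus that in Cav1KO cells was 0.58 on the log2 scale (limma adjusted p = 0.0464), with a rise on the stiff substrate in WT cells (0.57) and -0.01 in Cav1KO cells. For Amotl1 it was 1.59 (limma adjusted p = 0.0393), with 0.02 in WT cells and -1.57 in Cav1KO cells. Both lie close to the threshold and were lost in several alternatives. With 2 libraries a group, single libraries were not examined for outlying values.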

How the results depend on the processing

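The number of cascade genes called was 3 to 5 for stiffness in WT and 6 or 7 in Cav1KO cells over all alternatives. For the interaction it was 0 with a pseudocount of 0.1, 1 in edgeR and 0 without the trend, against 2, and the wider list gave 10 with a pseudocount of 5, 11 under quantile normalization, 10 in DESeq2 and 3 without the trend, against 6. The count over all genes for the interaction was 1309, and it fell to 810 with a pseudocount of 0.1 and to 705 without the trend. For stiffness in WT, DESeq2 called 15 of the wider list, against 23. Values near 0 changed sign: stiffness in Cav1KO of Lats1 to 0.059 (median centring) and 0.0031 (quantile) and of Stk4 to 0.080 (median centring), the interaction of Lats2 to -0.014 and -0.024 (median centring, quantile) and of Sav1 to -0.0025 (median centring), genotype on stiff of Stk4 to 0.052, 0.0114 and 0.0109 (median centring, quantile, DESeq2), and the genotype difference of the Stk3/Stk4 ratio to 0.0030 (quantile). No such value had passed a test, and the cause was not tested.

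With each library left out in turn, the interaction called 0 to 4 cascade genes, 0 to 23 of the wider list and 92 to 3445 of all genes, lowest for all genes without the first Cav1KO soft and highest without the first Cav1KO stiff library. Stiffness in WT called 8 to 25 of the wider list and 3836 to 6514 of all genes, both lowest without the first WT soft library. Genotype on stiff called 2 to 5 cascade genes, lowest without the first WT stiff library, and genotype on soft 4 to 7, lowest without either Cav1KO soft library. Ranges that crossed 0 were -0.23 to 0.28 for Amotl1 with stiffness in WT; -0.18 to 0.12 for Lats1 and -0.12 to 0.11 for Stk4 with stiffness in Cav1KO; -0.10 to 0.16 for Lats2 and -0.010 to 0.094 for Sav1 in the interaction; -0.00047 to 0.076 for Stk3, -0.064 to 0.057 for Stk4, -0.29 to 0.56 for Amotl1 and -0.21 to 0.29 for Amot with genotype on stiff. For ratios they were -0.11 to 0.13 (Lats2/Lats1, genotype), -0.17 to 0.14 (Stk3/Stk4, genotype), -0.23 to 0.13 (Mob1a/Mob1b, substrate) and -0.42 to 0.054 (Amotl1/Amot, substrate).

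The replicate numbers are tied by the labels to no shared day. Deviations of same-numbered libraries correlated from -0.37 (WT stiff with WT soft) to 0.42 (WT stiff with Cav1KO stiff) between groups. Whether some of these libraries shared a preparation or day was not tested. With a replicate block, 5 cascade genes were called for stiffness in WT (Stk3 added, adjusted p = 0.0392), 7 in Cav1KO and 2 for the interaction, and Nf2 was no longer called for genotype on soft (adjusted p = 0.0537). The lowest count of a cascade gene was 245 reads (Amotl1), above the 3 reads that a count of 0 allows, so none was near the limit of detection.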
